A study of Mus musculus with 8 samples.

Results

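The genes described here are 18 of the 26148 genes tested in mouse peritoneal macrophages treated with LECT2. They were selected on the log2 ratios of the 4 high-dose arrays, for a reversal in time: the LECT2-treated cells were at least 1 log2 unit below the control on both 48 h arrays and at least 1 log2 unit above it on both 3.5 h arrays. Candidates were the 16693 genes with a RefSeq mRNA probe that was well above background in either channel on 2 or more of the 8 arrays, and each gene was read from its brightest such probe. The other 9455 entries counted as genes had no RefSeq mRNA probe. Of these, 8 met the same high-dose thresholds but were not candidates. Shares over all 26148 genes include the 9455. Cells were treated with LECT2 at 5 µg/ml or at 0.5 µg/ml, for 48 h or for 3.5 h, and each treated RNA was hybridised on 1 array with RNA of cells given 0 µg/ml for the same time. Both replicates of a group came from separate experiments with different mice, which makes 2 arrays in each of 4 groups, and all cells were plated in low-glucose medium with fetal bovine serum. No strain, age or sex was given in the sources used here, and the cells came from the peritoneal cavity without a stated sort. The early time is called 3 h in the channel labels but 3.5 h in the titles, and 3.5 h is used here.

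LECT2 is a protein secreted mainly by the liver and first described as a factor that attracts neutrophils. Macrophages that meet an activating signal switch on immediate early genes, cytokines and surface proteins within hours, and they switch on inhibitors of the same pathways, among them phosphatases of the mitogen-activated protein kinases. A transcript that is induced early may later return to its level in untreated cells, stay above it or stand below it. The 18 genes encode secreted ligands (Il19, Tgfb1), surface proteins (Icosl, Plaur), signalling proteins (Pik3ap1, Dusp8, Rhbdf1), nuclear factors (Mycl, Ier2, Cbfa2t3), the cell death protein Bim (Bcl2l11), an mRNA-binding protein (Cpeb4) and a mixed remainder.

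The promoters of 4 of them are shown because each holds a motif that no other matched promoter of the 18 holds. RefSeq promoter sequences (build GRCm38.p6) matched 15 of the 18 genes with 18 windows, and a gene was counted once if any window of it held a motif. Each window ran from 250 bases before to 50 after the start site. The 250 bases before the start are printed 5′ to 3′ on the gene's own strand, at chr7:24462233-24462482 on the plus strand for Plaur, chr7:142095285-142095534 on the minus strand for Dusp8, chr1:130940116-130940365 on the minus strand for Il19 and chr4:122995681-122995930 on the plus strand for Mycl. Capitals mark TGACTCA, the AP-1 motif, in Plaur, TGACGTCA, the cyclic AMP response motif, in Dusp8, a match to the interferon response motif in Il19, and TATAAA in Mycl.
Plaur: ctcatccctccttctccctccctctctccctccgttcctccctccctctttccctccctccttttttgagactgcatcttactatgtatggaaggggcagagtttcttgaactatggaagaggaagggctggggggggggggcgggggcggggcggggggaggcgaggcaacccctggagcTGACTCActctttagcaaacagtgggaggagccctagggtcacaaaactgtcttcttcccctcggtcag
Dusp8: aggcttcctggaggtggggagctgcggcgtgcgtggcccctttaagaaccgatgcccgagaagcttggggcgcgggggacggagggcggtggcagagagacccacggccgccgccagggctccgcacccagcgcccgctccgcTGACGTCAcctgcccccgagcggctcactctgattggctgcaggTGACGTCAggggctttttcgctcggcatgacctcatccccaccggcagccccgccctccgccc
Il19: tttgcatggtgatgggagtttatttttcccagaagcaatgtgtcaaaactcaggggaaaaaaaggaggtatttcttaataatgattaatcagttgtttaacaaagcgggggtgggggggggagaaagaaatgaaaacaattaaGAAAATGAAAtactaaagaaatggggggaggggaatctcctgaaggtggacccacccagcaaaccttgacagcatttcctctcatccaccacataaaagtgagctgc
Mycl: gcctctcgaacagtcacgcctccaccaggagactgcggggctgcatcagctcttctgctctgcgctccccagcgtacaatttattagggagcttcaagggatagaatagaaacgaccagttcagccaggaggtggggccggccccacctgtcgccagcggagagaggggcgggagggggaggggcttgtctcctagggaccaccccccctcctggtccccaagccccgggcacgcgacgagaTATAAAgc
The cyclic AMP response motif was present at 2 places in Dusp8. Searched on both strands, it was found in 1 of the 15 genes and in 2.03% of 27025 genes. The AP-1 motif TGACTCA, whose other strand reads TGAGTCA, was in 1 of the 15 and in 5.95% of all genes, and the interferon response motif in 1 of 15 and in 3.99%. TATAAA was in 1 of the 15 and in 15.67% of all genes. The strict NF-kB motif was in 0 of the 15 and in 1.89% of all genes, while its loose form, which also matches GC-rich sequence, was in 13 of 15 and in 53.52%. The strict motif is one case of the loose one, so their matches overlap. These matches are a description of the sequence, and no test was made of them.

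One conflict in the deposited data bears on every value below. The values come from the authors' table of log2 ratios, with the sign turned so that a positive value is higher in LECT2-treated cells, and all arrays carried LECT2 in Cy3 and control in Cy5 with no dye swap. In 7 of the 8 columns of that table the scanner file that matched best was recorded under another sample. Correlations with the matched files were 0.9999 to 1.0000 in the 48 h columns, and in the 3.5 h columns they were 0.994 and 0.9735 at the high dose and 0.7815 and 0.978 at the low dose. The columns of the 48 h arrays equalled the scanner software's ratio within 0.01 log2 units in 86.4 to 88.4% of probes, and the 3.5 h columns in 2.69 to 9.04%. The columns of both times may thus have been made in different ways. Under the match every 48 h array lies on 1 slide and every 3.5 h array on the other, so that time and slide cannot be told apart. If the scanner files are instead read under the samples they are recorded with, 0 of the 18 genes meet the rule, and after normexp and loess the 48 h mean is negative in 1 and the 3.5 h mean positive in 5 of them. In replicate 1 of the low dose at 3.5 h, 4530 probes (11.5%) share 1 repeated value of log2 2.31, against at most 4 repeats of a value in the other columns, and 1 of the 18 genes, Bcl2l11, carries it.

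Reversal of this kind was infrequent at the high dose. At 48 h 1000 of 16693 genes (5.99%) were at -1 or below on both arrays, and at 3.5 h 1097 genes (6.57%) were at 1 or above on both. Both conditions held in 18 genes, 0.108% of all and 1.64% of the 1097. The opposite order, higher at 48 h and lower at 3.5 h by the same thresholds, held in 24 genes (0.144%), and 257 genes (1.54%) were at 1 or above on all 4 arrays. These counts follow from the rule itself and were not tested. Over the 18 genes the median of the mean effects was -1.49 at 48 h and 1.60 at 3.5 h.

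**Figure D1:**
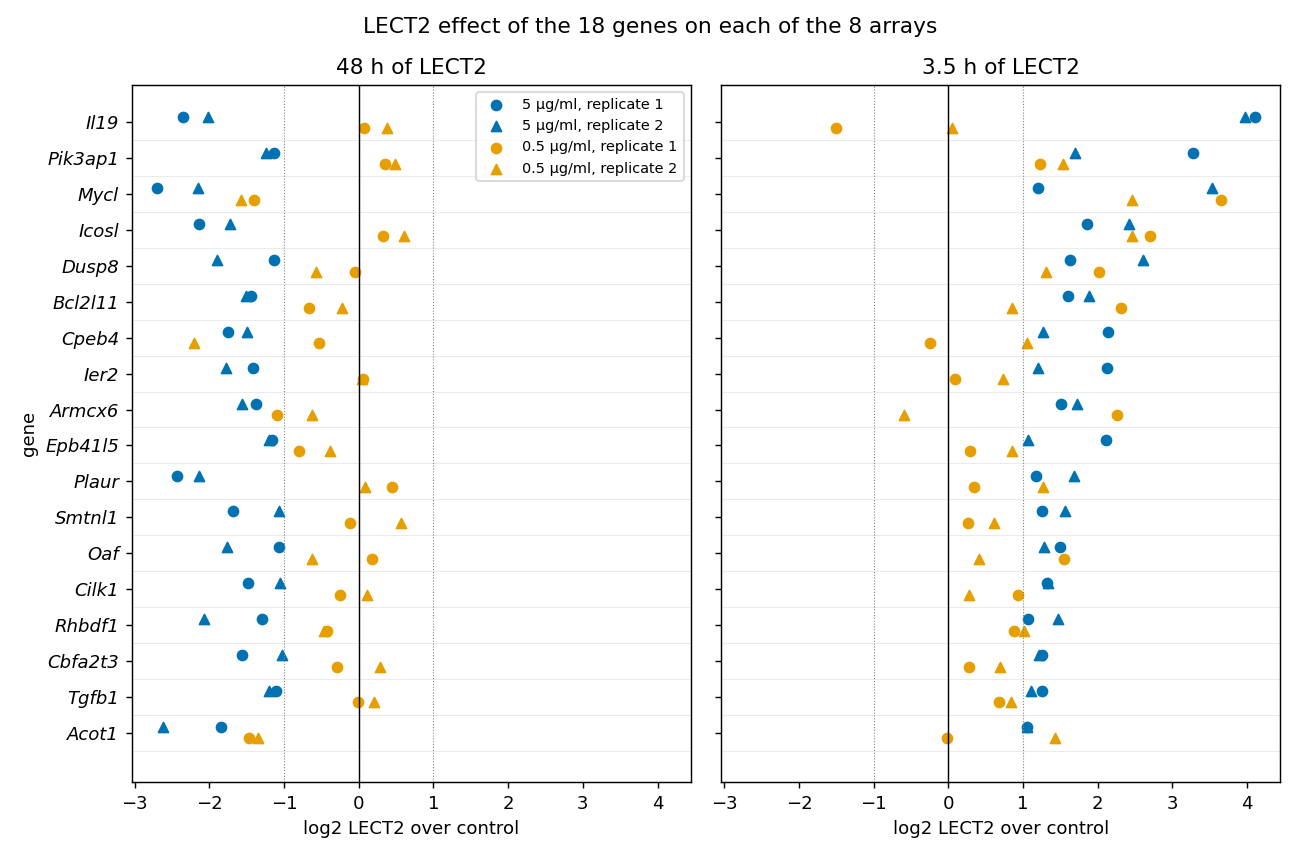
Log2 ratio of LECT2 over control (x axis) of each of the 18 genes (y axis) on each of the 8 arrays, with 48 h in the left panel and 3.5 h in the right, and dotted lines at -1 and 1. At 5 µg/ml (blue) all points lie below -1 at 48 h and above 1 at 3.5 h, as the rule requires. At 0.5 µg/ml (orange) 14 genes lie within 1 of 0 on both arrays at 48 h (share of all genes not computed).

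Among the secreted ligands, Il19, a cytokine of the interleukin-10 family, had the largest early values. On the 48 h arrays it stood at log2 -2.35 and -2.02, and on the 3.5 h arrays at 4.11 and 3.98. Its replicates differed by less than 0.5 log2 units at each time, and a second probe of the gene met the rule too, at -1.26 and -1.32 at 48 h and 2.93 and 3.16 at 3.5 h. Tgfb1, the ligand transforming growth factor beta 1, had smaller and more even values, at -1.10 and -1.20 at 48 h and 1.26 and 1.10 at 3.5 h. Both were among 28 tested cytokines and growth factors of activated macrophages, of which 8 were higher and 3 lower at the high dose and 48 h, and 22 higher and 0 lower at the high dose and 3.5 h (limma, adjusted p under 0.05). Across all genes 4.31% were called higher and 6.91% lower at 48 h, and 10.2% and 11.7% at 3.5 h, and the list medians of log2 0.80 at 48 h and 3.38 at 3.5 h stood beside -0.01 and -0.03 over all genes. The 3 called lower at 48 h were Il19, Tgfb1 and Csf1, the growth factor of macrophages, so the counts include 2 genes whose direction the rule fixed. Csf1 fell at 48 h by 1.64 on the log2 scale (SE 0.211, limma adjusted p = 0.00735) and was at -0.51 at 3.5 h (adjusted p = 0.124). Il10, the founding member of the family of Il19, was at 0.69 at 48 h (adjusted p = 0.372) and rose by 4.91 at 3.5 h (SE 0.470, adjusted p = 0.00125).

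The surface proteins were Icosl, the ligand of the T cell costimulatory receptor ICOS, and Plaur, the receptor of the protease urokinase. Icosl stood at -2.14 and -1.72 at 48 h and at 1.86 and 2.41 at 3.5 h. Plaur stood at -2.43 and -2.14 at 48 h and at 1.18 and 1.68 at 3.5 h. Plaur was 1 of 22 tested genes of matrix proteases and the plasminogen system, of which 2 were called higher and 5 lower at 48 h, and 6 higher and 3 lower at 3.5 h (list medians -0.08 and 0.06). These counts include Plaur, whose direction the rule fixed. Plau, the urokinase gene, was called at neither time, at -0.66 at 48 h and -1.05 at 3.5 h. Other surface ligands of T cell receptors had other values. Cd274, which encodes the checkpoint ligand PD-L1, rose at both times, by 2.54 at 48 h (adjusted p = 0.00827) and 2.02 at 3.5 h (adjusted p = 0.00683), and Cd80, a costimulatory ligand, was at -0.63 at 48 h (adjusted p = 0.162) and fell by 0.96 at 3.5 h (adjusted p = 0.0387).

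Dusp8, a phosphatase that inactivates the kinases JNK and p38, stood at -1.13 and -1.90 at 48 h and at 1.62 and 2.60 at 3.5 h. Pik3ap1 encodes an adaptor that links receptors to phosphoinositide 3-kinase, and it stood at -1.13 and -1.24 at 48 h and at 3.28 and 1.70 at 3.5 h. Rhbdf1 encodes iRhom1, an inactive rhomboid protein that helps to carry the shedding protease ADAM17 to the cell surface. Its values were -1.30 and -2.07 at 48 h and 1.07 and 1.47 at 3.5 h. Dusp8 was 1 of 16 tested kinase phosphatases and Rgs proteins, with 1 called higher and 5 lower at 48 h and 5 higher and 4 lower at 3.5 h, counting Dusp8, whose direction at both times the rule fixed (list medians -0.66 and 0.18). Dusp4, a relative, was positive early and negative late as well, at -1.05 at 48 h, where the test was not passed (adjusted p = 0.0921), and 1.36 at 3.5 h (SE 0.345, adjusted p = 0.0299). Dusp16 rose at both times, by 1.71 at 48 h (adjusted p = 0.0185) and 3.11 at 3.5 h (adjusted p = 0.00139), and Dusp2 was at -0.53 at 48 h (adjusted p = 0.214) and rose by 2.77 at 3.5 h (adjusted p = 0.00109).

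Of the nuclear factors, Mycl, which encodes the Myc family protein L-Myc, had the lowest late values, at -2.70 and -2.15 at 48 h, and uneven early ones, at 1.195 and 3.52. Ier2, an immediate early gene, stood at -1.41 and -1.78 at 48 h and at 2.12 and 1.19 at 3.5 h. Ier2 was 1 of 20 tested immediate early and AP-1 genes, of which 2 were called higher and 3 lower at 48 h and 4 higher and 2 lower at 3.5 h (list medians -0.30 and 0.25), counting Ier2, whose direction the rule fixed. Fosb, lower at 48 h by the same test, was at -1.21 there (SE 0.244, adjusted p = 0.024) and at 0.24 at 3.5 h (adjusted p = 0.519). Egr2, a zinc finger factor, was lower at both, at -1.67 at 48 h (adjusted p = 0.036) and -3.11 at 3.5 h (adjusted p = 0.00266). Cbfa2t3 encodes a corepressor of the ETO family and stood at -1.56 and -1.03 at 48 h and at 1.26 and 1.21 at 3.5 h. A second probe of Cbfa2t3 went the same way, at -0.62 and -0.80 at 48 h and 1.51 and 0.62 at 3.5 h, but another, designed on another transcript of the gene, was at -3.42 and -3.10 at 48 h and at -3.68 and -1.85 at 3.5 h. The early direction of Cbfa2t3 thus depended on the probe.

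Bcl2l11 encodes Bim, which promotes apoptosis, and stood at -1.44 and -1.50 at 48 h and at 1.61 and 1.89 at 3.5 h. Cpeb4, which binds mRNAs and regulates their polyadenylation and translation, stood at -1.75 and -1.49 at 48 h and at 2.14 and 1.27 at 3.5 h. Both genes showed replicates close to each other at 48 h. Armcx6, an armadillo repeat gene of the X chromosome, stood at -1.37 and -1.56 at 48 h and at 1.51 and 1.73 at 3.5 h. Oaf, the counterpart of the Drosophila gene out at first, stood at -1.07 and -1.76 at 48 h and at 1.49 and 1.28 at 3.5 h. The muscle gene Smtnl1, of the smoothelin family, stood at -1.69 and -1.07 at 48 h and at 1.26 and 1.56 at 3.5 h. These 3 had early replicates within 0.5 log2 units of each other. Epb41l5, which encodes a FERM domain protein of the membrane skeleton, stood at -1.16 and -1.20 at 48 h and at 2.11 and 1.06 at 3.5 h, while a second probe stood at -1.38 and -1.42 at 48 h and at 0.35 and -0.60 at 3.5 h. The early values of Epb41l5 thus differed between its probes.

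The members nearest to the threshold were Acot1, Cilk1 and Cbfa2t3. Acot1, a cytosolic acyl-CoA thioesterase, stood at -1.84 and -2.61 at 48 h and at 1.05 on both 3.5 h arrays. Its LECT2 channel was not well above background on any of the 8 arrays, and the software ratio of the matched scanner files averaged -0.94 at 3.5 h, so its early value rests on the authors' table. Cilk1, a protein kinase of cilia, stood at -1.48 and -1.05 at 48 h and at 1.32 and 1.33 at 3.5 h, and its second probe went the same way on all 4 arrays. Just outside the threshold, Olfr357 stood at -1.31 and -0.99 at 48 h and at 2.41 and 1.51 at 3.5 h. Vmn1r212 stood at -2.06 and -1.59 at 48 h and at 2.01 and 0.93 at 3.5 h. Prlhr stood at -0.93 and -1.20 at 48 h and at 2.60 and 1.1996 at 3.5 h. Etnk1, an ethanolamine kinase, and Lbp, the lipopolysaccharide-binding protein, came next. Etnk1 stood at -0.94 and -0.92 at 48 h and at 2.98 and 1.17 at 3.5 h, and Lbp at -0.91 and -0.90 at 48 h and at 0.90 and 1.12 at 3.5 h. With the threshold at 0.8 in place of 1 the rule gave 31 genes, and at 1.2 it gave 5.

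A further 7 genes met the rule only on a probe dimmer than the gene's brightest one, namely Arap3, Gramd1a, Hipk3, Kctd10, Pdzd2, Seh1l and Tmem262. Their brightest probes disagreed to different degrees. Gramd1a missed the rule on 1 array only, with its brightest probe at -0.73 and -1.48 at 48 h and 2.02 and 1.94 at 3.5 h. The brightest probe of Tmem262 was at -0.23 and -0.51 at 48 h and at -0.92 and -1.12 at 3.5 h, the other direction early.

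**Figure D2:**
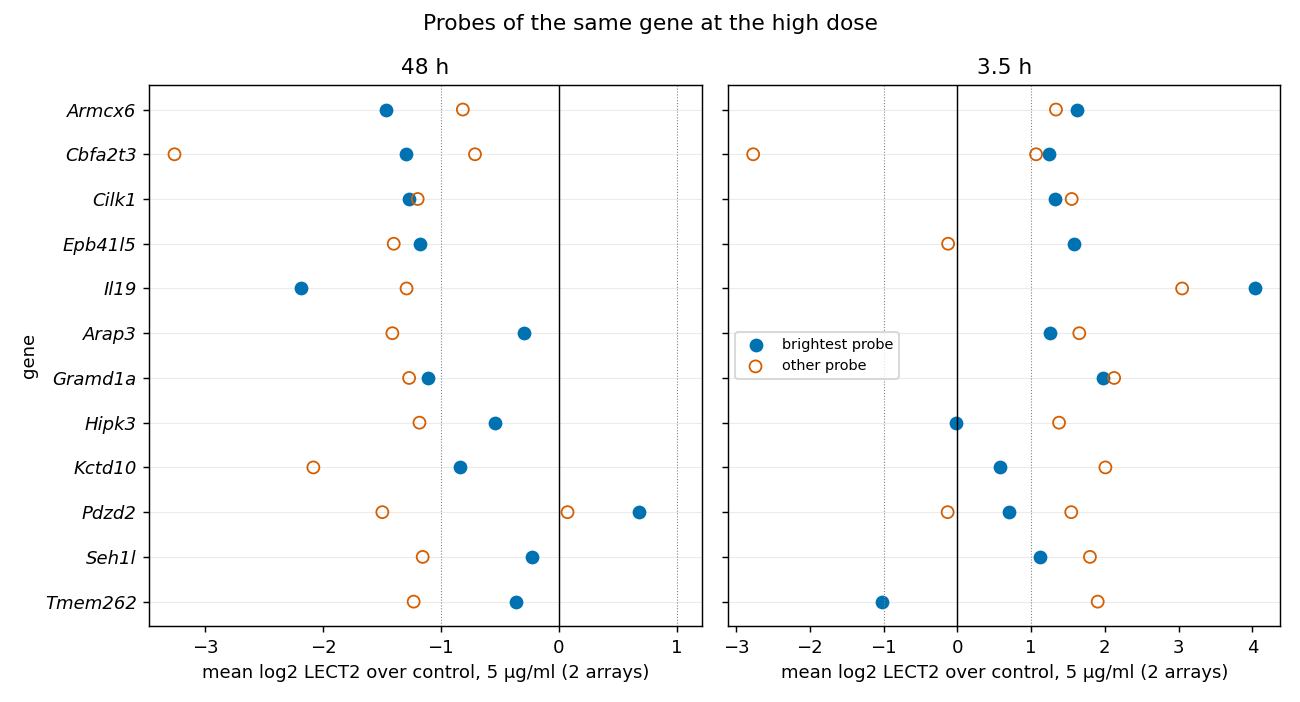
Mean log2 ratio of LECT2 over control on the 2 arrays at 5 µg/ml (x axis), at 48 h (left) and 3.5 h (right), for each probe of the genes with several usable probes (y axis); filled points are the brightest probe and open points the others. The upper 5 genes are among the 18 and the lower 7 met the rule only on a dimmer probe; of the upper 5, Cbfa2t3 and Epb41l5 have a probe below 0 at 3.5 h.

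The levels in each channel describe each side of the ratio. They were read from the matched scanner files after background correction, loess within arrays and scaling between arrays, on a log2 scale, and since time and slide cannot be told apart they are a description. At the high dose the LECT2 channel was lower at 48 h than at 3.5 h in 17 of the 18 genes, with a median difference of -1.99, beside -0.03 over all genes. Over the arrays of both doses, the control channel was higher at 48 h in 14 genes. Its median difference was 0.23, beside 0.02 over all genes. The rule favours genes with a low LECT2 level or a high control level late. These counts and medians thus follow in part from the rule, and the shares of all genes were not computed. Plaur had levels of 12.54 and 12.43 in LECT2-treated cells and 14.85 and 14.55 in control at 48 h, and 15.62 and 15.59 in LECT2-treated cells and 14.17 and 13.88 in control at 3.5 h. Its LECT2 level was thus the highest of the 4 conditions early and the lowest late. Ier2 had 10.38 and 10.04 in LECT2-treated cells and 11.67 and 11.58 in control at 48 h, and 13.78 and 12.88 in LECT2-treated cells and 11.45 and 11.62 in control at 3.5 h. Over the 4 arrays of each time, control levels at 48 h lay wholly above those at 3.5 h in Mycl and Plaur and wholly below them in Icosl and Rhbdf1, and they overlapped in the other 14 genes.

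**Figure D3:**
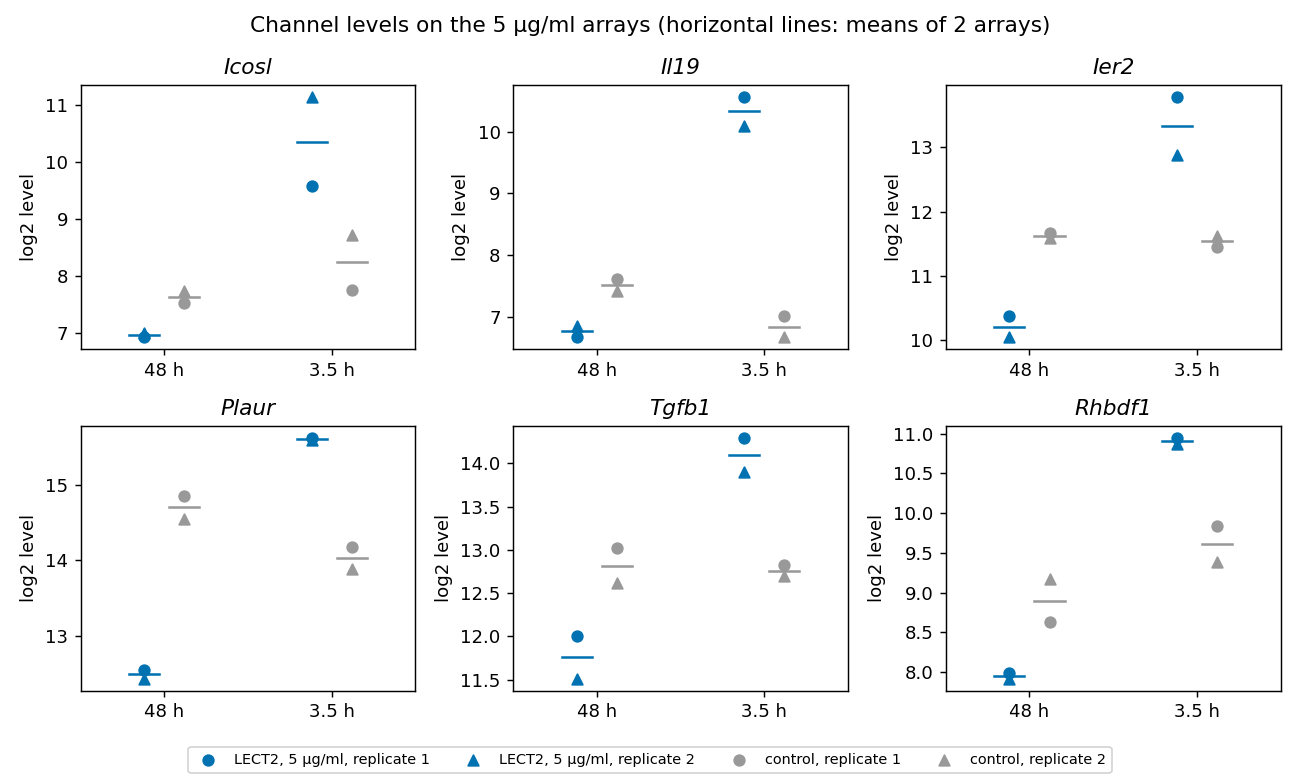
Log2 level of the LECT2 channel (5 µg/ml, blue) and the control channel (grey) on the 2 arrays of each time (x axis, 48 h left of 3.5 h) for 6 of the genes, with means as horizontal lines. In each of the 6 panels the LECT2 points lie below the control points at 48 h and above them at 3.5 h, which the rule favours, since it used these arrays. The 6 genes were picked for display. The LECT2 channel of Icosl and Il19 was not well above background on either 48 h array.

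Several late values are near background. In 7 genes the LECT2 channel was not well above background on either 48 h array of the high dose. A smallest fold was sought from the brighter channel's mean against a floored signal of the dimmer one. The floored signal was, on each array, the higher of the probe's own signal and the lowest signal well above background. In all 7 the result equals the ratio of the measured means, so the floor had no effect and no bound can be given. With mean levels of 6.77 in LECT2-treated cells and 7.52 in control, Il19 was 1.68-fold lower by these means. By the same measure Acot1 was 1.69-fold, Mycl 1.61-fold, Icosl 1.59-fold, Dusp8 1.53-fold, Cpeb4 1.39-fold and Epb41l5 1.15-fold lower. These ratios are uncertain near background and open to dye bias, since no dye swap was made. Early high-dose values of Cpeb4, Epb41l5 and Mycl were near background too, with each channel well above it on 1 of 2 arrays. On replicate 1 at 3.5 h neither channel of these genes was well above it. Plaur, Ier2 and Tgfb1 were the 3 of the 18 that met the full rule in the matched files after background correction and loess too. These 3 were well above background in both channels on all 8 arrays. So were Bcl2l11, Cbfa2t3, Cilk1, Oaf, Pik3ap1, Rhbdf1 and Smtnl1, which did not meet the rule in that version. In the loess version 17 of the 18 kept the sign of all 4 high-dose arrays, and Acot1 did not. With median centring in place of loess 16 kept it and 0 met the full rule. Cpeb4 and Epb41l5 did not keep it there, with means of 0.07 and 0.30 at 48 h.

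The 0.5 µg/ml arrays were not used to choose the genes, and the pattern was tested in them at both times. They may share control cultures with the high-dose arrays. The SE of each test also draws on the high-dose arrays that the rule used, so the tests are not wholly independent of the rule. With only the low-dose arrays in the fit, 2 of the 18, Icosl and Mycl, were called higher at 3.5 h and 0 were called lower at 48 h. At 48 h and 0.5 µg/ml, 0 of the 18 genes were called lower and 0 higher (limma, adjusted p under 0.05), while 0.0191% of all genes were called lower and 0.153% higher (5 and 40 genes, against 331 and 680 with quantile scaling between arrays and 21 and 13 with matched files centred on their medians). At an unadjusted p under 0.05, 3 of the 18 were lower, namely Acot1, Cpeb4 and Mycl, beside 4.82% of all genes. In all 3 the LECT2 channel was not well above background on either of these arrays. The control channel was well above it on 1 of 2 for Acot1 and Cpeb4 and on 2 of 2 for Mycl. By the measured mean levels Mycl was 1.2-fold lower. The median effect was -0.14, beside 0.02 over all genes and -0.54 over the 1000 genes at -1 or below on both high-dose 48 h arrays. Both arrays were below 0 in 8 of the 18 (29.0% of all genes). They were above 0 in 5, and 14 genes lay within 1 of 0 on both arrays (shares of all genes not computed). The late decrease was therefore not detected at the low dose, where the median SE of an effect was 0.28.

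At 3.5 h and 0.5 µg/ml, 4 of the 18 genes were called higher and 0 lower, beside 2.75% and 2.15% of all genes and 38.5% called higher among the 1097 genes at 1 or above on both high-dose 3.5 h arrays. The split over all genes, 718 higher and 561 lower, depended on scaling, with 528 and 840 when each array was centred on its median, 163 and 382 with quantile scaling and 743 and 2516 with matched files centred on their medians. At an unadjusted p under 0.05, 10 of the 18 were higher, beside 11.4% of all genes. The unadjusted share of the 1097, the nearer comparison, was not computed. Icosl, higher by this test, had values of 2.70 and 2.46 (mean 2.58, SE 0.24, adjusted p = 0.00353). Mycl had 3.65 and 2.46 (mean 3.06, SE 0.52, adjusted p = 0.0208). Its control channel was not well above background, and against the floored control signal Mycl was 2.42-fold higher. This is not a strict bound, since a signal above the floor was not always called well above background. The control signal of Il19 on replicate 2, at 7.365, was one such case. Dusp8 had 2.02 and 1.31 (mean 1.66, SE 0.34, adjusted p = 0.0366), and Bcl2l11 had 2.31, the repeated value, and 0.86 (mean 1.58, SE 0.34, adjusted p = 0.0434). Without replicate 1 of this group 1 gene, Icosl, passed. Without replicate 2 the count was 4, with Armcx6 in place of Dusp8, and 1 gene, Il19, was called lower. In both of these fits the lone array left is assumed to vary like the other groups. With the repeated value set to missing it was 3, without Bcl2l11. With the scanner files read under their recorded samples none of the 4 passed. The mean was positive in 17 of the 18 (share of all genes not computed), the exception being Il19 with -1.50 and 0.04. Both arrays were above 0 in 14 (33.4% of all genes). The median over the 18 was 0.78, beside 0.00 over all genes and 1.18 over the 1097.

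Il19 was the member whose early effect differed most between doses, with means of 4.04 at 5 µg/ml and -0.73 at 0.5 µg/ml. A second probe of Il19 read 2.31, the repeated value, and -0.99 at the low dose, so its 2 probes and 2 arrays did not give one low-dose direction. The other members not called at the low dose and 3.5 h included Pik3ap1 at 1.23 and 1.54 (adjusted p = 0.068), Tgfb1 at 0.68 and 0.83 (adjusted p = 0.076), Rhbdf1 at 0.87 and 1.02 (adjusted p = 0.076), Plaur at 0.34 and 1.27 (adjusted p = 0.151) and Ier2 at 0.08 and 0.74 (adjusted p = 0.461).

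The difference between times was tested directly at the low dose as the 48 h effect minus the 3.5 h effect. Of the 18 genes 0 were called lower and 0 higher, beside 0.0841% and 0.0153% of all genes (22 and 4 genes, or 15 and 14 with quantile scaling), and the lowest adjusted p was 0.101 (limma). At an unadjusted p under 0.05, 10 were lower, beside 5.58% of all genes, and the unadjusted share of the 1097 early higher genes was not computed. The median difference was -1.18, beside 0.02 over all genes and -0.74 over the 1097 early higher genes, and both 48 h arrays lay below both 3.5 h arrays in 14 of the 18, beside 20.4% of all genes and 60.6% of the 1097. Mycl had a fitted difference of -4.55 (SE 0.74, adjusted p = 0.101), with -1.41 and -1.57 at 48 h and 3.65 and 2.46 at 3.5 h, and it was the 1 gene of the 18 that met all 4 conditions of the rule at the low dose too. Its size is uncertain. The LECT2 channel at 48 h and the control channel at 3.5 h were not well above background on either array. Mycl was 1.2-fold lower at 48 h by the measured mean levels and 2.42-fold higher at 3.5 h against the floored control signal, which is not a strict bound. Icosl differed by -2.11 (SE 0.34, adjusted p = 0.101), with both times above 0. Without replicate 2 of the low dose at 3.5 h, 3 of the 18 were called lower in this contrast, namely Mycl, Armcx6 and Bcl2l11. The lone 3.5 h array left, assumed to vary like the other groups, read 2.31, the repeated value, for Bcl2l11, and 2.26 for Armcx6, against -0.60 on the array left out.

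**Figure D4:**
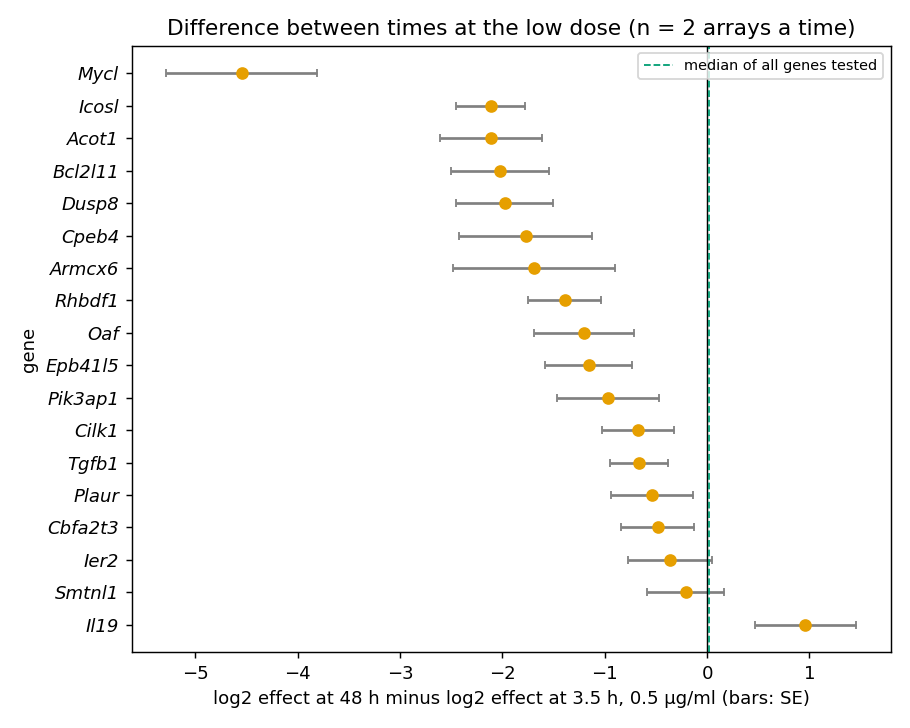
Log2 effect at 48 h minus log2 effect at 3.5 h at 0.5 µg/ml (x axis, bars are SE, 2 arrays a time) of the 18 genes (y axis); the dashed line is the median of all genes tested. The difference is negative in 17 genes, from -4.55 in Mycl to -0.21 in Smtnl1, and 0.96 in Il19, and none passed the adjusted test. The share of all genes with a negative difference was not computed.

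The culture held macrophages and signal of other cells. Of 14 tested markers of peritoneal macrophages 13 were well above background in all 8 control channels. All 7 tested B cell markers, 6 of 8 dendritic cell markers, 9 of 12 T and NK cell markers and 5 of 9 neutrophil markers were so too. The same held for 8 of 12 mesothelium and fibroblast markers, 3 of 7 mast cell markers and 3 of 4 eosinophil markers. It held for 2 of 4 endothelium markers and 2 of 3 red blood cell markers. Icosl and Pik3ap1 are also known from B cells and other antigen-presenting cells, and in bulk RNA fewer cells of a type and less RNA per cell cannot be told apart. The summed level of the 8 dendritic cell markers was below control at 48 h and above it at 3.5 h, although none of the 8 markers had a positive mean effect at 3.5 h with a negative one at 48 h. In the high-dose LECT2 channel the sum was 2.78 to 2.94 at 48 h and 7.95 to 8.21 at 3.5 h (linear signal in units of 1000), with 3.60 to 3.98 and 4.01 to 5.37 in the control channel. At the high dose 1 of the 8 was called higher and 1 lower at 48 h, and 4 higher and 2 lower at 3.5 h, with median effects of 0.26 at 48 h and 0.90 at 3.5 h. The B cell markers summed to 13.0 to 14.4 in the high-dose LECT2 channel at 48 h and 12.1 to 13.8 at 3.5 h in the same units, with 8.52 to 9.42 and 8.86 to 10.8 in control. On the high-dose arrays the control sum of the mesothelium and fibroblast markers was 59.2 to 110 at 48 h and 21.4 to 60.8 at 3.5 h. Their LECT2 sum was 50.8 to 54 at 48 h and 22.7 to 24.9 at 3.5 h. The mast cell markers summed to 2.26 to 3.03 in control at 48 h and 5.92 to 15.5 at 3.5 h. Their LECT2 sum was 2.03 to 2.15 and 9.14 to 11.2 in the same order. The part of these other cells in the values of the 18 genes was not tested.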

How the data were processed

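RNA of treated and control macrophages was hybridised on 8 two-colour Agilent arrays of 44397 spots. Per the file headers and the submitters' processing notes signals were extracted with Agilent Feature Extraction 10.7.3.1; the deposited scanner files hold intensities of each channel and a log10 ratio of Cy5 over Cy3. The authors' deposited table holds log2 values of 39428 probes whose preparation is not stated. Comparison with the scanner files showed them to be log2 of Cy5 (control) over Cy3 (LECT2), with column medians from -0.22 to 0.08, and the sign was turned here with no further scaling.

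Probes were kept (31615) if 1 or both channels were well above background on 2 or more arrays, and the brightest probe of each gene was used. Of 26271 RefSeq mRNA probes 25729 were named from RefSeq (GRCm38.p6), from which no coordinate of a probe was taken, while the arrays were annotated on mm9. A group mean per dose and time was fitted to all 8 arrays in limma 3.58.1 (R 4.3.3), which leaves 4 residual degrees of freedom, with Benjamini-Hochberg adjustment over 26148 genes at 0.05, and the fit was tested on simulated data. Channel levels came from the matched files with normexp (offset 50), loess and Aquantile scaling, and the number of arrays limits the precision. From 56.4 to 71.7% of spots were well above background in the LECT2 channel and 63.6 to 82.3% in the control channel, and at most 1.42% were outliers.

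High-dose values of the 18 genes carry no test, since they chose the genes. The genes and the gene lists were chosen with earlier results of these data known. Each of the 18 genes is named, and a list gene outside the 18 was named after its values were seen. The labels do not say whether a replicate number marks the same experiment in every group, so the main fit has no block. Alternatives varied the source of the values, scaling, filter, probe rule, threshold, variance model, block and arrays used.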

Additional observations from a re-analysis of the deposited data

Results flagged for a closer look

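At 48 h 5 of the 18 genes had both 5 µg/ml arrays below 0 and both 0.5 µg/ml arrays above 0. The high-dose side of this difference follows from the rule that chose the genes, and the difference was not tested. How many of all genes, or of the 1000 genes at -1 or below on both high-dose 48 h arrays, had such values was not computed. The count of 5 is therefore a description only. Plaur averaged -2.29 at the high dose and 0.26 at the low dose, a difference of -2.55 on the log2 scale. Il19 averaged -2.18 at the high dose and 0.23 at the low dose, a difference of -2.41. The second probe of Il19 was at -1.50 and -0.71 on the low-dose 48 h arrays. The low-dose direction of Il19 at 48 h thus depended on the probe. For Icosl the means were -1.93 at the high dose and 0.47 at the low dose (difference -2.39), for Ier2 -1.60 and 0.05 in the same order (difference -1.64), and for Pik3ap1 -1.19 and 0.41 (difference -1.60). The LECT2 channel of Il19 and Icosl was not well above background on either high-dose 48 h array, so these differences have no exact size. By the measured mean levels there Il19 was 1.68-fold and Icosl 1.59-fold lower than control. In Ier2 both low-dose values lay within 0.1 of 0.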

How the results depend on the processing

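The 18 genes depend on the source of the values. With the scanner files read under their recorded samples, 0 genes met the rule by normexp and loess, 0 by the software log ratio and 0 by the processed signals. Matched files gave 3 genes (all among the 18) after normexp and loess, 11 (0 of the 18) after normexp and median centring, and 18 (17 of the 18) by the software log ratio, and centring each array of the table gave 10. A threshold of 0.8 gave 31 genes and one of 1.2 gave 5, and the rule on 1 replicate alone gave 79 to 114.

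The count of the 18 called higher at the low dose and 3.5 h (4) was 0 under each of the 3 recorded-file versions, 7 with matched files after normexp and loess, and 2 each with centring, with quantile scaling, with no filter on dim probes and with only the low-dose arrays in the fit. Leaving out 1 array of that group gave 1 to 4, with 1 gene, Il19, called lower without replicate 2. At 48 h the count of 0 became 1 (Mycl) with quantile scaling, and 1 array left out gave 0 again. The difference between times (0) became 1 with matched files after normexp and loess, 1 after normexp and median centring and 1 with quantile scaling, and leaving out 1 array gave 0 to 3. The cause of these shifts was not tested. Deviations of same-numbered arrays from their group means correlated at -0.06 to 0.469 over the 6 pairs of groups. With the replicate block in the fit the counts of the 18 were 4 at 3.5 h, 0 at 48 h and 0 for the difference, as without it, and over all genes it called 81 higher and 16 lower at the low dose and 48 h, against 40 and 5 without it. Of the 18 genes' single results under alternatives, 268 of 305 at 3.5 h, 286 of 287 at 48 h and 335 of 341 for the difference stayed on their side of the test. Where an alternative called 0 of all genes, an uncalled gene could not leave its side. No called result changed sign at 3.5 h, the only comparison with called members. Among uncalled results the sign changed in 22 at 3.5 h, 44 at 48 h and 22 for the difference. Icosl stayed past the test at 3.5 h in 14 of 17 alternatives (adjusted p 0.000307 to 1), Mycl in 12 (0.0104 to 1), Dusp8 in 8 (0.0207 to 1) and Bcl2l11 in 5 (0.0106 to 1). Over all genes the calls at 3.5 h (718 higher, 561 lower) were 1344 and 1049 in matched files after loess, 78 and 39 without replicate 1 of that group, and 0 in recorded files after loess. Leaving out 1 replicate of every group leaves no residual degrees of freedom, so single low-dose arrays were left out instead, as an alternative chosen after seeing the data, like setting the repeated value to missing and reading the matched files by the software ratio or median centring. Signals near background leave the late high-dose values of 7 genes without an exact size. The same holds for the early high-dose values of Acot1, Cpeb4, Epb41l5 and Mycl. The 2 arrays a group limit all tests.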
